A study of Rattus norvegicus with 3 samples.

Results

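Interleukin-6 family cytokines signal through the shared receptor subunit gp130, and 10 genes of that route and of its acute phase output were followed in rat kidney after ethylene glycol. The genes were taken by symbol from 20667 genes on the array: the ligand gene Lif, the receptor genes Osmr, Il6r and Il6st (gp130 itself), the transcription factor gene Stat3, its feedback inhibitor gene Socs3, and the acute phase genes Serpina3n, Lbp, Cp and Hp. All 10 were found, and 9 were measured, meaning that at least 1 array reached a background level of 5.33 log2 set from olfactory receptor genes. Hp was the exception.

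The samples were kidneys of male rats on Clariom S arrays, with 1 sample per group, each called an array here. The signal columns are headed Avg, and the sample titles do not state how many rats or arrays a value stands for. The control group was 1 sample. The group called EG day 2, here day 2, was 1 sample after ethylene glycol by mouth at 8 g/kg, taken at day 2. EG day 5, here day 5, was 1 sample with the same dose, taken at day 5. The labels leave unclear whether the dose was given once or on each of those days. The labels used here state no strain, no age, no handling of the control and no part of the kidney. Each group was 1 sample with no spread between animals, so nothing could be tested, and every difference below describes these 3 arrays only. In RNA from a whole piece of tissue, a change in the number of cells of a type and a change in RNA per cell cannot be told apart.

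As background, a cytokine of this family joins gp130 to a partner receptor: the LIF receptor for LIF, the oncostatin M receptor (OSMR) for oncostatin M, and the interleukin-6 receptor for interleukin-6. The joined receptors activate JAK kinases, which phosphorylate STAT3, and STAT3 then enters the nucleus and switches on its targets. SOCS3 is among those targets, and it binds gp130 and the JAK kinases and damps the signal. In liver the same route drives the acute phase response, in which fibrinogen, haptoglobin, ceruloplasmin and protease inhibitors are made in larger amounts. The arrays measure transcripts, and phosphorylation of STAT3 was not measured.

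The promoter windows below are examples. Serpina3n, Fgb and Fgg had the same order of arrays, with day 2 far above the others, whereas Cp was highest at day 5. Socs3 and Fga, another fibrinogen chain gene, also had day 2 far above the others, and their windows are not shown. Fgb and Fgg encode the beta and gamma chains of fibrinogen. The sequences are RefSeq windows of build GRCr8, from 250 bases before to 50 after a transcript start, 5′ to 3′ on the strand of the gene. Capitals mark TTCNNNGAA, a general STAT binding motif, and CTGGGAA, an interleukin-6 response element known from fibrinogen genes. In Cp no match to either was found, and there the capitals mark TTNNGNAA, a loose C/EBP motif. That motif does not set Cp apart: the windows of Serpina3n and Fgb hold 2 and 4 matches to it, not marked here. The window of Fgg holds none.
Serpina3n, chr6:129088142-129088441, plus strand: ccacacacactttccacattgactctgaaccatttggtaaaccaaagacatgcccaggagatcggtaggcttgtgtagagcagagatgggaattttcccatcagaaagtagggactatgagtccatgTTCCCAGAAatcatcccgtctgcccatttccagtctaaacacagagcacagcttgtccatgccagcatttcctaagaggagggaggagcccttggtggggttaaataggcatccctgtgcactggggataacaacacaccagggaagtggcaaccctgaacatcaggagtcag
Fgb, chr2:170700826-170701125, minus strand: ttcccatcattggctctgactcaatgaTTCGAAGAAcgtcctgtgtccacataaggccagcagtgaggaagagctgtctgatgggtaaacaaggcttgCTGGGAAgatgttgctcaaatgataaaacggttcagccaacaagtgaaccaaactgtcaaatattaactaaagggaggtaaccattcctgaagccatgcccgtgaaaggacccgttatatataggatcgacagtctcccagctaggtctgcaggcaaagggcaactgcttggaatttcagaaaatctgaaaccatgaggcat
Fgg, chr2:170652833-170653132, plus strand: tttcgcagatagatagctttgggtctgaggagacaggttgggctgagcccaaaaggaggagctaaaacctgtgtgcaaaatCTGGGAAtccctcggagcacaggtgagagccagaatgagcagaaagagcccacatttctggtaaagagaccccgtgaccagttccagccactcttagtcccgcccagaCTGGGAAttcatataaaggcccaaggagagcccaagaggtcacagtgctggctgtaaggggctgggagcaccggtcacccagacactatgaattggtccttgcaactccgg
Cp, chr2:104368420-104368719, plus strand: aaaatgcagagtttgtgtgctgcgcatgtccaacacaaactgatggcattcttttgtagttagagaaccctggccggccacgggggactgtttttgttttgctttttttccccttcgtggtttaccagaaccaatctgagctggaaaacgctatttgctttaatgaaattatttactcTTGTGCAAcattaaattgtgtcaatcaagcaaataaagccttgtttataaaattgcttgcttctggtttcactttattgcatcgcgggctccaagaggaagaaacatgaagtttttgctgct

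Among the 7 of the 10 genes with a window, Serpina3n was the only one to hold TTCNNNGAA, as TTCCCAGAA beginning 123 bases before the start. Those letters also contain CTGGGAA on the other strand, so they are 1 site read as 2 motifs. Fgb held TTCGAAGAA at 223 bases and CTGGGAA at 152 bases before the start, and Fgg held CTGGGAA at 169 and 61 bases. Of the windows not shown, that of Socs3 held none of the motifs. The first window of Fga held TTCNNNGAA and TTNNGNAA and no CTGGGAA. Of all 33469 windows in the table, 8.87% hold TTCNNNGAA, 11.3% hold CTGGGAA and 41.3% hold TTNNGNAA, each searched on both strands. The window of Socs3 begins from a transcript start that lies 1207 bases inside the annotated gene, those of Il6r and Il6st lie 1496 and 11360 bases inside, and those of Osmr, Cp, Fgg and Stat3 lie 241, 334, 154 and 154 bases inside. A match is a string of letters and not a proven site, and a window without a match says nothing of the rest of the gene.

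Lif, which encodes leukemia inhibitory factor, a ligand of the LIF receptor with gp130, had a signal of 4.44 log2 on the control array, 7.51 at day 2 and 4.94 at day 5. Only the day 2 array was above the background level. Against that level the day 2 signal was at least 4.53-fold higher than the control and at least 4.53-fold higher than day 5. No fold can be given between day 5 and the control, since both lay under the level. Lif stood at place 36 from the top among 13573 measured genes for day 2 against control. That place rests on the minimum difference of 2.18 log2, so it depends on the background level.

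Most other ligand genes of the family lay near or under the background level. Il6, the namesake cytokine, was under the level with 4.09 log2 in the control, 4.83 at day 2 and 4.71 at day 5. Osm (oncostatin M), which lies next to Lif with no protein-coding gene between them in the RefSeq table, was likewise under it with 3.72, 2.93 and 3.43. Of 10 other ligand genes, 4 were measured, 0 were at least 2-fold higher at day 2 and 1 was at day 5. Of all measured genes 4.45% were higher and 2.45% lower at day 2, and 4.75% were higher and 3.62% lower at day 5. That gene was Cntf (ciliary neurotrophic factor), at 5.95, 6.70 and 7.18 log2, a 2.35-fold difference between day 5 and the control. Ctf1 (cardiotrophin 1) was at 9.24, 9.34 and 8.87. Il11 reached 5.35 log2 at day 2, just over the level.

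Osmr encodes the partner of gp130 for oncostatin M. Its signal was 10.63 log2 in the control, 12.65 at day 2 and 11.17 at day 5. Day 2 was therefore 4.06-fold above the control and 2.79-fold above day 5, and day 5 was 1.45-fold above the control. Il6st, the gp130 gene, showed the same order with smaller differences, at 13.05, 13.93 and 13.08 log2. It was 1.84-fold higher at day 2 and 1.02-fold higher at day 5 than in the control. Il6r, the interleukin-6 receptor gene, was lowest at day 2, with 6.75, 6.36 and 6.57 log2, and the day 2 signal was 1.31-fold below the control.

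The receptor genes therefore did not share an order of arrays. Lifr, the LIF receptor gene, lies next to Osmr with no protein-coding gene between them. It stood at 14.77 log2 in the control, 14.75 at day 2 and 14.48 at day 5, where its neighbour Osmr differed by 2.02 log2 at day 2. Of 5 other receptor genes of the family, all of them measured, 0 were at least 2-fold higher or lower on an EG array than in the control, and the list medians were -0.09 and -0.23 log2 at day 2 and day 5. Cntfr, the ciliary neurotrophic factor receptor gene, differed by -0.09 and -0.23, and Il31ra by -0.21 and 0.04. All measured genes had medians of 0.05 and 0.01.

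**Figure D1:**
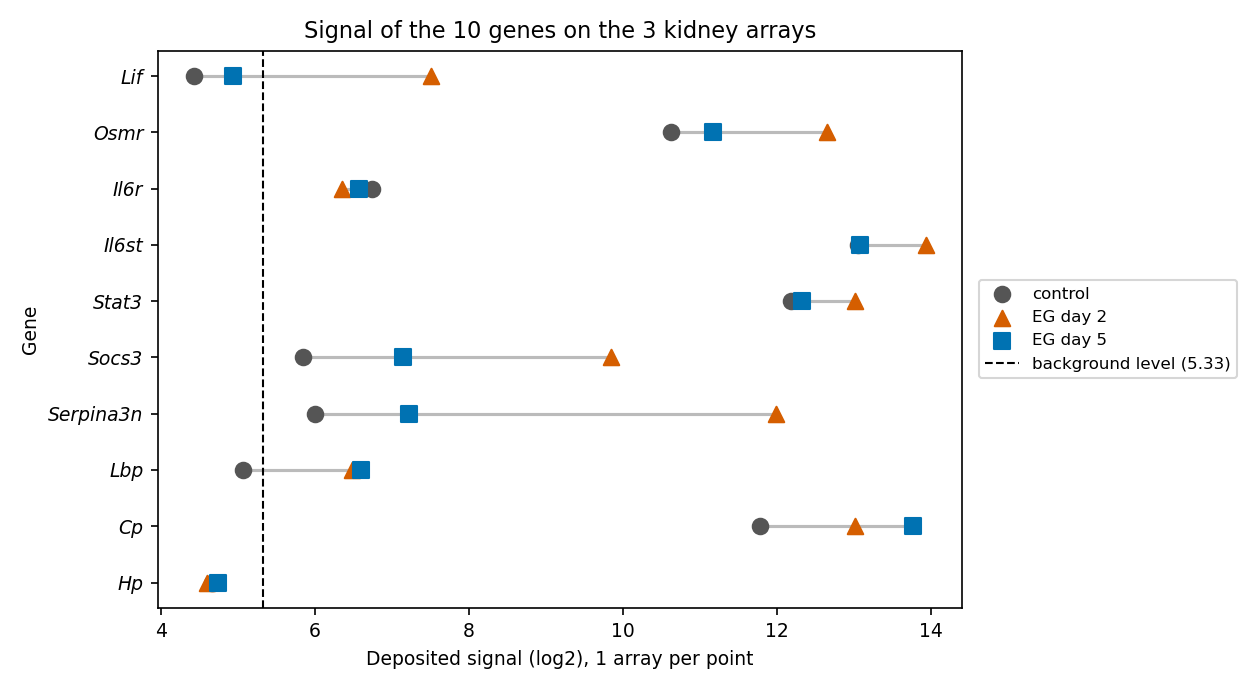
Deposited log2 signal (x axis) of each of the 10 genes (y axis) on the control, day 2 and day 5 arrays, 1 point per array, with the background level of 5.33 as a dashed line. Day 2 is the highest point for Lif, Osmr, Il6st, Stat3, Socs3 and Serpina3n, day 5 is the highest for Lbp and Cp, and Hp lies under the level on the 3 arrays.

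Stat3, the transcription factor gene, had 12.18 log2 in the control, 13.02 at day 2 and 12.32 at day 5. The day 2 array was 1.79-fold above the control, and day 5 was 1.1-fold above it. Socs3, the feedback inhibitor gene, had 5.85, 9.85 and 7.15 log2. The day 2 signal was 16-fold above the control and 6.5-fold above day 5, and day 5 was still 2.46-fold above the control. Socs3 stood at place 9 from the top of the measured genes for day 2 against control, and Stat3 at place 926.

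Of 10 other measured genes of the kinase and STAT step, 1 passed 2-fold upward at day 2 (Jak3, a kinase of lymphoid cytokine receptors, 1.02 log2), 0 were lower, and the median was 0.29, where 4.45% and 2.45% of all measured genes were higher and lower. At day 5 no gene of the 10 passed 2-fold either way, and the median was 0.38, above the 0.14 of Stat3. Tyk2, a kinase bound to gp130, differed by 0.60 and 0.91, so its larger difference was at day 5. Jak2 differed from the control by 0.33 log2 at day 2 and 0.12 at day 5, and Stat5b by -0.07 and 0.09. Stat6 differed by 0.10 and -0.08.

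The other feedback and turn-off genes differed less than Socs3 on these arrays. Of all measured genes, 4.45% were higher and 2.45% lower at day 2, and 4.75% were higher and 3.62% lower at day 5. Of 15 other feedback and turn-off genes, 0 were at least 2-fold higher or lower at day 2 (median 0.36). At day 5, 2 were lower and 0 higher (median 0.00). The 2 were Cish, a SOCS family inhibitor of STAT5 signalling, with 10.50, 10.35 and 9.50 log2, and Pias1, a SUMO ligase of the PIAS family, with 10.99, 10.69 and 9.96. Socs7 differed by -0.21 and -0.23 log2, and Pias3, an inhibitor of STAT3, by -0.29 and -0.14. Adam10, a sheddase that can release the interleukin-6 receptor, differed by 0.01 and -0.05.

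Genes known as STAT3 targets in other tissues lay on both sides of the control. Of 23 measured, 4 passed 2-fold upward and 3 downward at day 2 (median 0.39), and 4 upward and 5 downward at day 5 (median 0.06), against the shares of all measured genes given above for the ligands. Lcn2, the gene of the iron-siderophore binding protein NGAL, had 5.73, 12.62 and 12.08 log2, so it was still 81.6-fold above the control at day 5. Tnfrsf12a, the TWEAK receptor gene, was 9.32-fold higher at day 2 and 2.38-fold higher at day 5, and Timp1, a metalloproteinase inhibitor gene, 6.11-fold and 2.48-fold higher. Bcl3, a co-regulator of NF-kB, was under the level in the control and at 7.07 log2 at day 2, at least 3.34-fold higher.

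Some targets lay on the other side. Fos differed from the control by -1.22 log2 at day 2 and by -1.24 at day 5, and Vegfa, an endothelial growth factor gene, by -1.19 and -1.27. Junb differed by -0.02 at day 2 and -1.27 at day 5, and Il4r, the interleukin-4 receptor gene, by 0.09 and -1.39. Myc differed by 0.20 and 0.22, Mcl1 by 0.39 and -0.01, and Bcl2l1 by 0.14 and 0.33. The listed targets, whether higher, lower or near the control, can also answer to signals other than STAT3. The part of STAT3 in their values was not tested.

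Serpina3n, a secreted serine protease inhibitor gene of the acute phase, had the largest difference among the 10 genes. Its signal was 6.0 log2 in the control, 11.99 at day 2 and 7.23 at day 5. Day 2 was 63.6-fold above the control and 27.1-fold above day 5, and day 5 was 2.35-fold above the control. It held place 7 from the top for day 2 against control, and place 3 from the bottom for day 5 against day 2. These values come from the brightest of 3 clusters that name the gene. A dimmer cluster naming it alone had 3.41, 3.87 and 2.97 log2, and one naming LOC299282 as well had 3.95, 3.96 and 3.90, all under the level. With the mean of the clusters naming it alone, the day 2 difference was 2.61 log2 and the day 5 difference 0.00.

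Lbp, whose product binds bacterial lipopolysaccharide and hands it to CD14, was under the level in the control at 5.07 log2 and above it at 6.49 and 6.60. It was at least 2.23-fold higher at day 2 and at least 2.41-fold higher at day 5. Both EG arrays lay close together, 0.11 log2 apart. With the level at the median of all values (6.40 log2), the Lbp differences were 0.09 and 0.20, so its size rests on signals near background.

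Cp encodes ceruloplasmin, the copper-carrying ferroxidase of plasma. It was the only measured gene of the 10 besides Lbp with its highest signal at day 5: 11.78 log2 in the control, 13.02 at day 2 and 13.77 at day 5. It was 2.36-fold and 3.97-fold above the control, which put it at places 316 and 45 from the top. Hp, the haptoglobin gene, a main acute phase gene of liver, had 4.67, 4.6 and 4.75 log2 and was under the level on the 3 arrays, so no fold is given.

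Set side by side, 6 of the 9 measured genes were at least 2-fold higher at day 2 than in the control (Lif, Osmr, Socs3, Serpina3n, Lbp and Cp) and 0 were lower, with a median of 1.24 log2. The shares of all measured genes were 4.45% and 2.45%. At day 5 the higher genes numbered 4 (Socs3, Serpina3n, Lbp and Cp) and the lower 0, with a median of 0.54, where 4.75% and 3.62% of all measured genes were higher and lower. Between the EG arrays 0 were higher at day 5 and 4 lower (Lif, Osmr, Socs3 and Serpina3n), with a median of -0.85, where 2.21% and 3.33% of all measured genes were higher and lower and their median was -0.03. After quantile normalization the shares for day 2 were 3.44% and 2.93%, and with arrays centred on their medians those for day 5 were 3.65% and 4.78%, while the counts for the 10 genes stayed as given. With the background level at the median of all values (6.40 log2), Cp alone of the 10 was at least 2-fold higher at day 5: Socs3 differed by 0.75, Serpina3n by 0.83 and Lbp by 0.20. Lif passed the background filter through its high array alone, and Lbp through its EG arrays, so both had to differ once measured. The other 7 measured genes were above the level on every array, and 4 of these 7 were at least 2-fold higher at day 2.

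**Figure D2:**
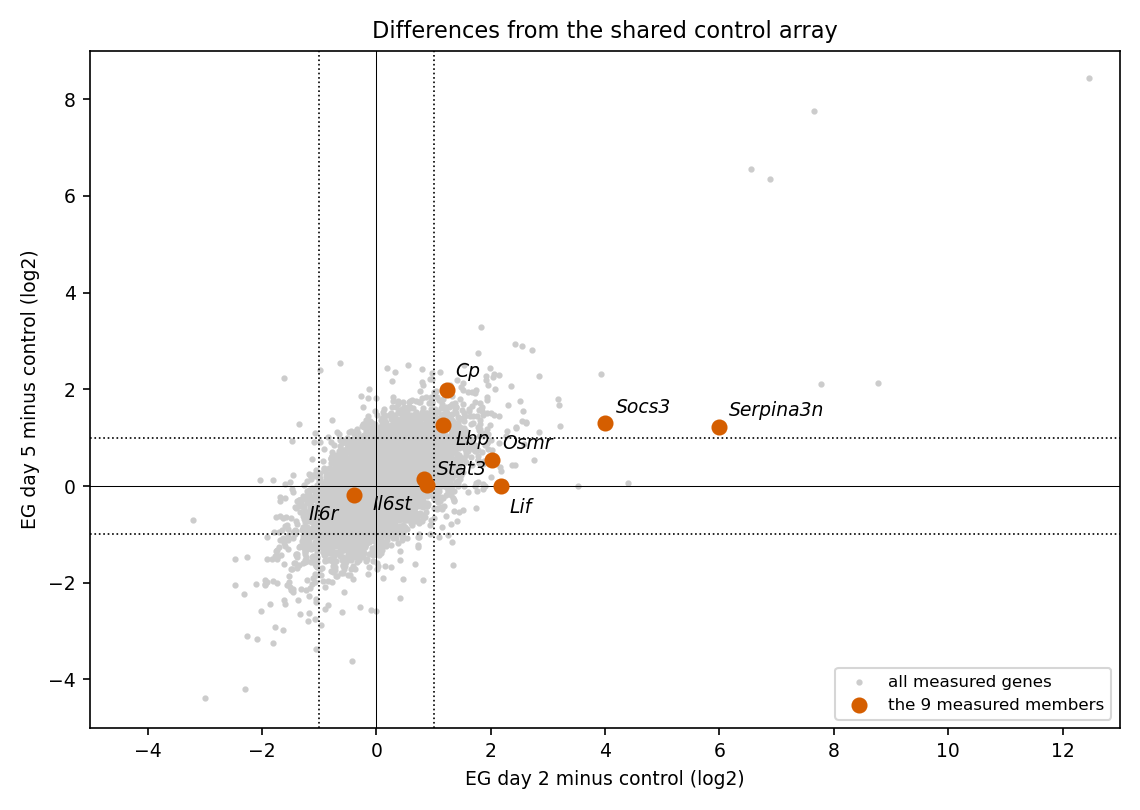
Log2 difference of day 2 from control (x axis) and of day 5 from control (y axis), for all 13573 measured genes in grey and the 9 measured members in orange, with dotted lines at 2-fold. Both axes subtract the same control array. Serpina3n (5.99 and 1.23) and Socs3 (4.0 and 1.30) lie to the right of most grey points, at places 7 and 9 from the top at day 2. Some grey points, such as Havcr1 (12.47 and 8.44) and Fga (8.77 and 2.12), lie further right. Cp (1.24 and 1.99) lies above the diagonal.

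The acute phase genes outside the 10 gave a mixed picture, and at day 2 the fibrinogen chains had the largest differences among them. Of 29 listed, 25 were found and 17 measured. At day 2, 5 of these passed 2-fold upward and 0 downward (median 0.57), where 4.45% and 2.45% of all measured genes did. At day 5, 7 were higher and 1 lower (median 0.51), where 4.75% and 3.62% of all measured genes were. Fga, Fgb and Fgg, the 3 chains of fibrinogen, were 437-fold, 218-fold and at least 21.1-fold higher at day 2 and 4.35-fold, 4.29-fold and at least 1.04-fold higher at day 5. Kng1, a kininogen gene, was 5.43-fold and 2.30-fold higher, and C3, the central complement gene, 5.74-fold and 3.39-fold higher.

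Some other acute phase genes had the order of Cp, with day 5 the highest. A2m, the alpha-2-macroglobulin gene and a main acute phase gene of the rat, had 4.63, 6.12 and 7.75 log2 and was at least 5.35-fold higher at day 5. Alb, which falls in an acute phase response of the liver, had 6.46, 7.03 and 8.19 log2. Apcs, the serum amyloid P gene, was the exception on the lower side, with 11.57, 10.72 and 9.11 log2, which made it 5.5-fold lower at day 5. Kng2 (4.06, 5.33 and 5.55 log2) and Ahsg (4.93, 5.59 and 5.46) were under the level in the control and close to it on the EG arrays. Their folds are therefore minima, and their true differences are not known. Serpina3c (5.01, 5.05 and 5.57) was under the level in the control and at day 2. It has no day 2 fold, and its day 5 fold is a minimum. The 8 listed genes found but under the level on the 3 arrays were Crp, Orm1, Saa4, Serpina3m, Hpx, Hamp, Itih3 and Itih4, many of them plasma protein genes of the liver like Hp.

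**Figure D3:**
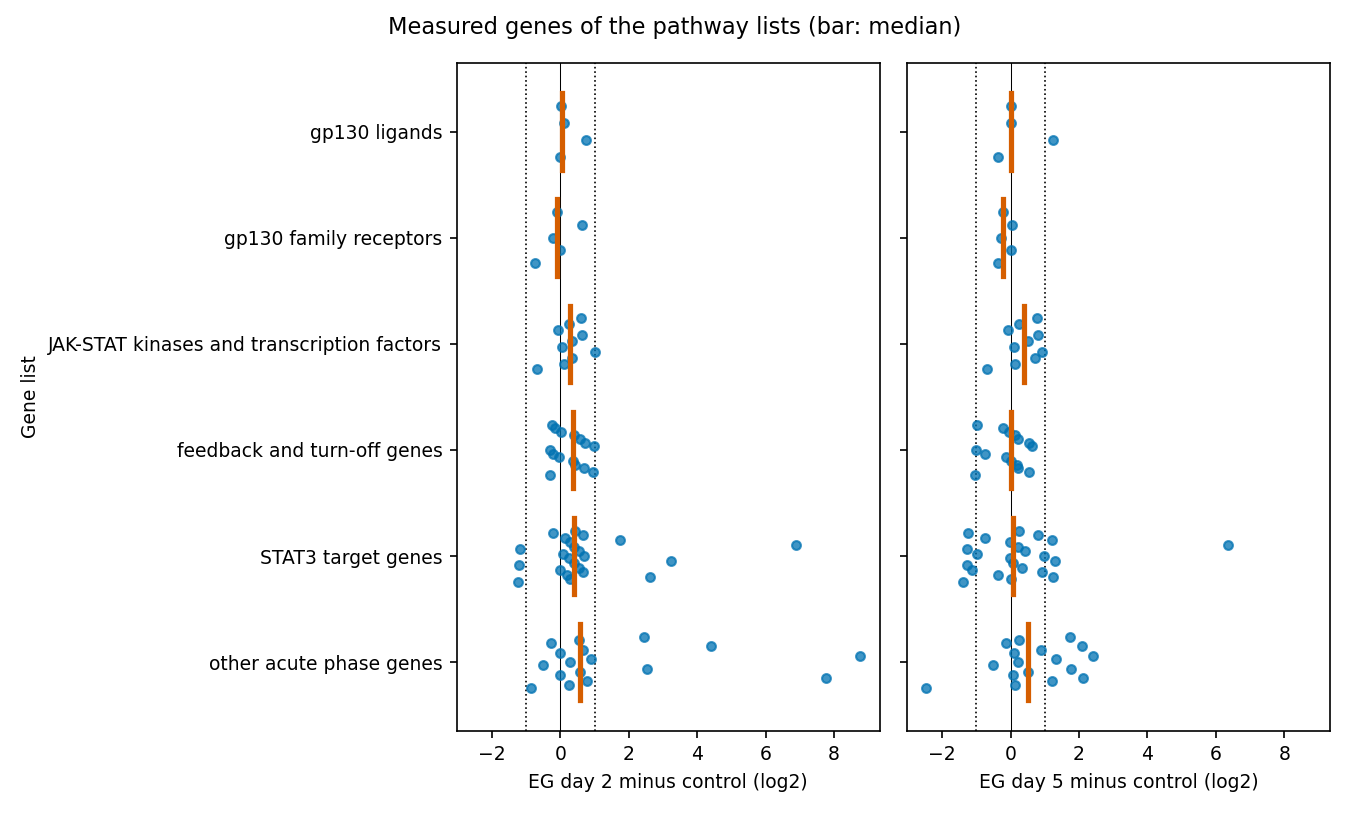
Log2 difference from control at day 2 (left) and day 5 (right) for each measured gene of 6 pathway lists (1 point per gene, orange bar at the list median, dotted lines at 2-fold). The medians lie between -0.09 and 0.57 at day 2, and single genes of the STAT3 target list (Lcn2, 6.89) and the acute phase list (Fga, 8.77) lie far to the right.

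The windows of the listed genes were searched for the same motifs and for TTCCNGGAA, a tighter STAT motif, with CTGGGAA added after the values were seen. Of 104 listed genes, the 10 included, 77 had a window, and for a gene with several the first in the table was read. Among 13 measured genes with a window that were at least 2-fold higher at day 2, 6 held CTGGGAA (46.2%: Serpina3n, Fgb, Fgg, Lcn2, C3 and Kng1), and 9 of 49 other measured genes did (18.4%). For TTCNNNGAA the numbers were 4 of 13 (30.8%: Serpina3n, Fga, Fgb and Tnfrsf12a) and 5 of 49 (10.2%), or 6 of 49 (12.2%) with any window of a gene, where Bcl2l1 is added. TTCCNGGAA was held by 1 of 13 (7.69%, Fga) and 3 of 49 (6.12%), against 1.27% of all windows, and TTNNGNAA by 7 of 13 (53.8%) and 16 of 49 (32.7%). CTGGGAA is known from fibrinogen genes, so its matches in Fgb and Fgg are no independent observation. The 1 site of Serpina3n counts under both CTGGGAA and TTCNNNGAA. The 9 other genes with CTGGGAA include Apcs and Vegfa, which were lower than in the control at day 2 (-0.85 and -1.19 log2) and at day 5. They also include Steap4 and Socs6, which differed by 0.55 and 0.44 log2 at day 2. The lists were drawn up from genes known for this response, and the 13 genes were picked by their day 2 values. These shares are therefore a description of the lists and were not tested.

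Genes with the pattern most like each of the 10 were found by distance in the plane of both differences from control, over 3 arrays. Nearest to Serpina3n were Fgg, Fgb and Socs3, at distances of 1.97, 1.98 and 1.99 log2. The control signal of Fgg was under the level, and its deposited values differed from control by 5.61 and 1.27 log2, against 5.99 and 1.23 for Serpina3n, so the distance to Fgg is set by the background level. Nearest to Socs3 were Tnfrsf12a (0.78), Abcb1b, a drug efflux pump gene (0.89), and Ctsd, the cathepsin D gene (0.96). Osmr had close company in Gstp1, a glutathione transferase gene (0.06), Pik3r1, a regulatory subunit of PI3 kinase (0.14), and Rdh10 (0.17). For Lif and Lbp no nearest genes are given, since their control signals lay under the level and their differences are minima.

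Nearest to Cp were the ribosomal protein gene Rpl39 (0.04), Tmem176a (0.06) and Mrc1, the macrophage mannose receptor gene (0.06). Il6r, Il6st and Stat3 were under 2-fold from the control and were not matched.

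Marker genes of the tissue and of other cell types were read on the same arrays. For all marker counts below, the shares of all measured genes were 4.45% higher and 2.45% lower at day 2. At day 5 they were 4.75% higher and 3.62% lower. Of 10 kidney markers, 10 were above the level in the control, among them Umod of the thick ascending limb at 18.79, 18.69 and 18.67 log2. Of the 10 kidney markers, 2 were at least 2-fold lower and 0 higher at day 2 (median -0.36). At day 5, 3 were lower and 0 higher (median -0.45). Slc34a1, the phosphate transporter gene of the proximal tubule, differed by -1.16 and -1.05. Havcr1, the gene of the tubular injury marker KIM-1, differed by 12.47 log2 at day 2 and 8.44 at day 5. Of 14 measured macrophage and monocyte markers, 8 passed 2-fold upward at day 2 and 8 at day 5, and 0 passed it downward at either time. Their mean signal over 15 markers was 6.93, 7.81 and 8.11 log2, and Mrc1 was at 6.29, 7.48 and 8.32. The part of macrophages in the values of the 10 genes was not tested.

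Liver RNA and neutrophils were looked for because acute phase transcripts are typical of the liver. Of 12 hepatocyte marker genes, 3 (Apoa1, Cps1 and Tat) were under the level on the 3 arrays. In the control 7 of the 12 were at or over the level, among them Serpinc1, at 12.78, 11.93 and 12.10 log2 on the 3 arrays. Liver RNA as a source was not tested. Of 9 measured hepatocyte markers 0 were at least 2-fold higher at day 2 (median -0.13), and Alb was the 1 that was at day 5 (median -0.26). Of 9 neutrophil markers, 8 were under the level on the 3 arrays, including S100a8, S100a9 and Mpo, and Np4 was above it in the control only. Of 9 T and NK cell markers, 6 were under the level on the 3 arrays, and Gzmb and Prf1 were above it in the control only. Cd4, which is also a gene of rat macrophages, differed from the control by -0.12 and 2.01 log2.

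Fibroblast markers differed among themselves in their order of arrays. Of 6 measured, 2 passed 2-fold upward at day 2 and 5 at day 5, with medians of 0.45 and 1.61 log2 and a mean over 8 markers of 8.74, 9.28 and 9.84 log2. Col1a1 and Col3a1 were 4.5-fold and 5.13-fold higher at day 5 and 1.21-fold and 1.26-fold higher at day 2. Dcn, the decorin gene, was highest at day 2 with 14.20, 16.06 and 15.24 log2, and Pdgfra was 2.46-fold higher at day 2 and 2.77-fold at day 5. Endothelial markers had 0 of 6 higher or lower at each time. Of 5 measured red blood cell markers, 2 were at least 2-fold lower and 0 higher at each time, with medians of -0.45 and -0.39 log2. The 2 were Hbb, which differed by -1.81 and -3.24 log2, and Hba-a1, by -1.60 and -2.44. The part of these cells in the values of the 10 genes was not tested.

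**Figure D4:**
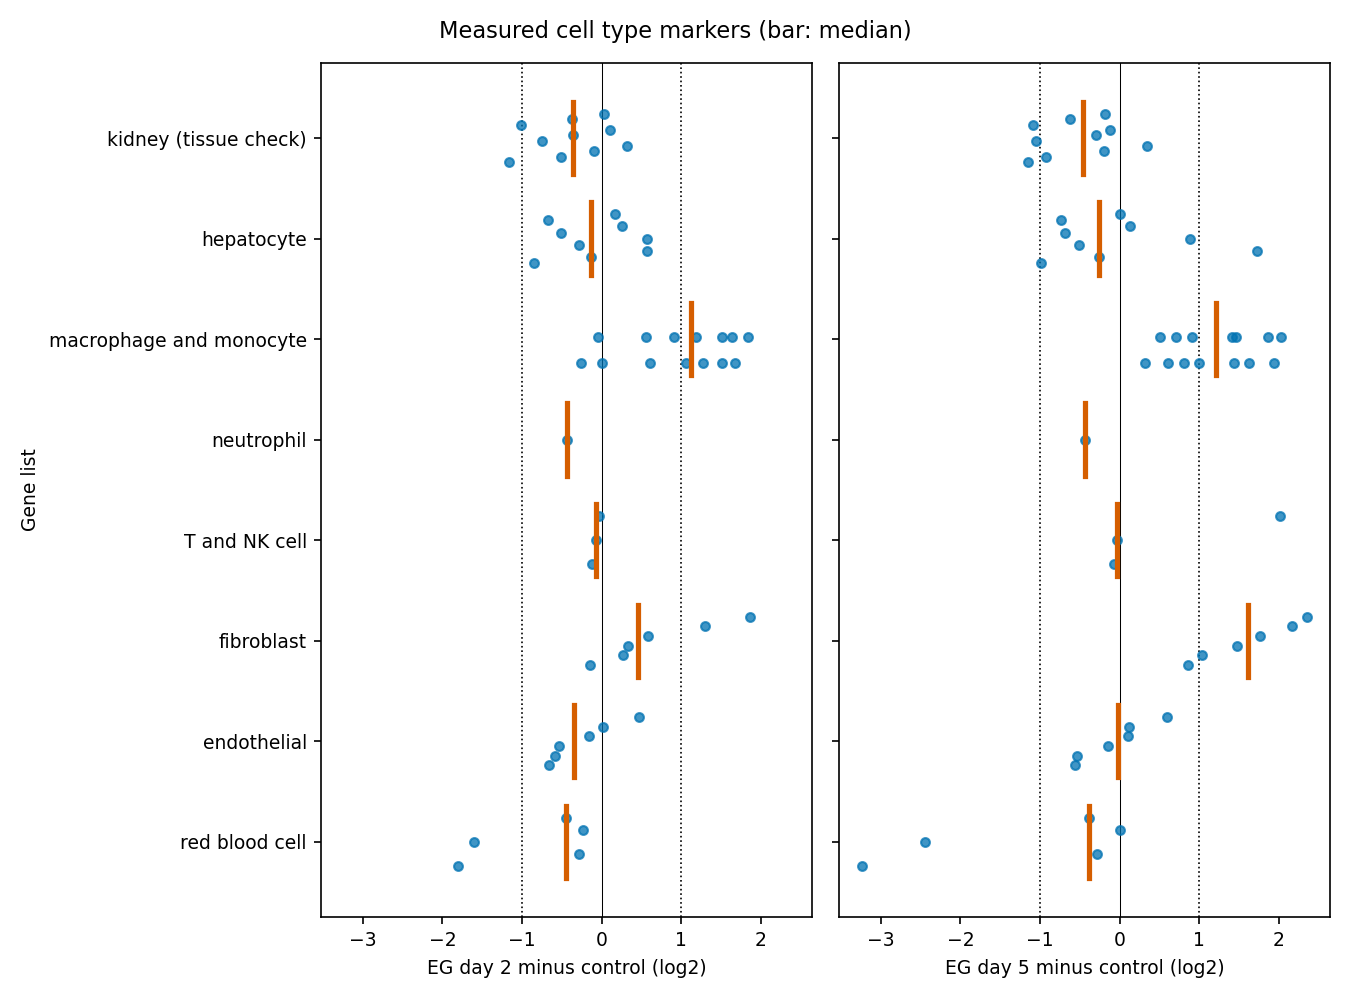
Log2 difference from control at day 2 (left) and day 5 (right) for each measured marker of 8 cell type lists (1 point per gene, orange bar at the list median, dotted lines at 2-fold). Macrophage and monocyte markers have medians of 1.12 and 1.21, hepatocyte markers of -0.13 and -0.26, and fibroblast markers of 0.45 and 1.61.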

How the data were processed

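Kidney RNA of male rats was labelled with biotin and hybridised to Clariom S rat arrays, giving 3 samples. Per the file headers, the authors made log2 values per transcript cluster (the probes of a transcribed locus) in Transcriptome Analysis Console with the rn6 annotation, unfiltered. How background and arrays were adjusted is not given in the sources used here. These log2 values reach 19.93, and 232 clusters exceed 16, the limit of a 16-bit scanner. The scale was therefore transformed, and folds are on that scale. The deposited tables hold the same numbers (69564 of 69564).

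A gene was read from its brightest cluster naming it alone (21502 of 23188 clusters name 1 gene). Values under the 95th percentile of 1101 olfactory receptor genes (5.33 log2) were set to that level, so a fold against such a value is a minimum. Of 20667 genes 13573 were measured. Genes at least 2-fold apart were counted, with no test, and the number of arrays limits the precision. The genes, lists and rules were chosen with earlier results of these data known. Besides the 10, the rule named the list members at least 2-fold from control (8 at most, by size), up to 3 nearest to 0, and the 3 nearest in pattern, and 1 gene it named is not reported here, nor are those nearest to Lif and Lbp, whose differences are minima. Other genes, such as Il6, Osm and those under the level, were named after their values were seen. Of the 10, 7 matched a RefSeq promoter window (GRCr8). Protein motifs were planned and not analysed here. Python 3.11.15, pandas 2.3.3 and limma 3.58.1 (cyclic loess) were used, and the counting was tested on simulated data. Alternatives were 3 scalings, 3 background choices, 2 cluster rules, the other table and 2 fold thresholds.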

Additional observations from a re-analysis of the deposited data

Results flagged for a closer look

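Opposite directions at the time points were seen for 3 of the named genes, each past 2-fold from the control at day 5 and from day 2, and the difference was not tested. Il4r was 1.48 log2 lower at day 5 than at day 2 (a difference of -1.48), with 0.09 and -1.39 against the control. Adgre1, a macrophage surface gene, was higher by 2.13, with -0.26 and 1.87 against the control. Cd4, a gene of T cells and of rat macrophages, was also higher by 2.13, with -0.12 and 2.01 against the control. The day 2 values of the 3 genes lie within 0.26 log2 of the control, so their direction at that time rests on small differences.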

How the results depend on the processing

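No paired analysis was possible because each group has 1 array. Of 270 values for single members under the alternatives, 261 moved by under 1.5-fold and none past 2-fold changed sign. The 9 others were Lif at day 2 (3.07 log2 with the olfactory median or nothing as background, 1.11 with the median of all values, and then -1.11 between the EG arrays), Lbp (0.09 and 0.20 with the median of all values) and Serpina3n with its clusters averaged (2.61, 0.00 and -2.61). Of 93 counts and medians over the members, 90 stayed within 1.5 times or 1.5-fold. At day 5 the members at least 2-fold above the control numbered 1 with the median of all values as background and 0 at a 4-fold threshold, against 4. At a 1.5-fold threshold 1 member was higher at day 5 than at day 2, against 0. Among all genes, those lower at day 2 numbered 332, against 505 with the olfactory median as background and 601 with nothing, and those higher at day 5 than at day 2 300, against 510 with nothing. The share of higher genes among those past 2-fold was 64.5% at day 2 and 54.0% after quantile normalization, and 56.8% at day 5 and 43.3% with arrays centred on their medians. The cause of these shifts was not tested. Signals near the background limit Lif, Lbp and Hp.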
